A study of Homo sapiens with 6 samples.

Results

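The genes described are the ERBB receptor tyrosine kinases and their main ligands, 10 genes picked by symbol from a table of RNA-seq counts with 57781 rows. They are the receptors EGFR, ERBB2, ERBB3 and ERBB4 and the ligands AREG, EREG, HBEGF, TGFA, BTC and NRG1. All 10 were listed and all 10 passed the filter on low counts. The cells were A549, a long-established line from a human lung adenocarcinoma. There were 3 wild-type libraries with the vector (vector) and 3 libraries with METTL3 knocked down (shMETTL3), METTL3 being the catalytic subunit of the complex that writes m6A on RNA. Both groups share the cell line and its culture in medium with serum, and no further treatment is labelled. The short hairpin sequences were carried on a plasmid with a neomycin marker. How many hairpins were used, and whether each line was a clone or a pool, is not given in the sources used here.

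ERBB receptors sit in the membrane of epithelial cells and signal as pairs. Ligands of the EGF family are made as membrane precursors that proteases release. EGFR and ERBB4 bind ligands and have active kinases, ERBB2 binds no known ligand and serves as the preferred partner of the others, and ERBB3 binds neuregulins but has a weak kinase and signals through PI3K once paired. In lung adenocarcinoma EGFR and ERBB2 are known driver genes.

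METTL3 checked the labels. It stood at 49.8 ± 0.674 CPM (counts per 1000000, scaled between libraries by TMM; SD, n = 3) in vector and 19.3 ± 0.525 CPM (SD, n = 3) in shMETTL3, or 38.8% of the vector level. Library totals ran from 14931426 to 19108928 counts, so that 3 counts correspond to 0.149 to 0.189 CPM. Much of the transcriptome differed between the groups: 66.6% of the 15125 genes tested passed an adjusted p of 0.05 (edgeR, quasi-likelihood F test, Benjamini-Hochberg), 33.7% higher and 32.9% lower in shMETTL3. The groups did not overlap for 69.5% of them. Of the ERBB genes, 6 of 10 passed that test, a share near the background, and 9 of 10 did not overlap between groups. The size and direction of single members are therefore what is described. EGFR, EREG and NRG1 rose, ERBB2, ERBB3 and TGFA fell, and ERBB4, AREG, HBEGF and BTC did not pass. The median log2 fold change of the 10 members was 0.070, against 0.0022 over all genes tested. Without vector replicate 2 the median of the members was 0.025, and scaled by library size alone it was 0.24, against 0.18 over all genes. The libraries are bulk RNA, in which fewer cells of a kind and less RNA per cell cannot be told apart. Nothing in the labels says that the libraries came from separate cultures, so the p-values measure the spread between these libraries.

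The promoters of 3 members are shown: those of ERBB2 and EGFR, the receptors with the highest level per kilobase in vector and in shMETTL3, and that of EREG, the ligand that rose most. Each covers 250 bases before to 50 bases from the start of the gene's canonical transcript on the plus strand of GRCh37 (hg19), read 5′ to 3′. Capitals mark the first transcribed base and each match, on either strand, to an AP-2 site (GCCNNNGGC), a GC box (GGGCGG) or a TATA box (TATAAA), the motifs that were searched.
ERBB2, chr17:37856067-37856366: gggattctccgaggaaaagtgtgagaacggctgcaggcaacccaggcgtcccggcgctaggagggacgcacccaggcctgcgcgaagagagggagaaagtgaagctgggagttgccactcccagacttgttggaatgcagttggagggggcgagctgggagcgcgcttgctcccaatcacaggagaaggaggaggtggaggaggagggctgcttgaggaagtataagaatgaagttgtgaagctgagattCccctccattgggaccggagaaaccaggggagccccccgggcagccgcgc
EGFR, chr7:55086460-55086759: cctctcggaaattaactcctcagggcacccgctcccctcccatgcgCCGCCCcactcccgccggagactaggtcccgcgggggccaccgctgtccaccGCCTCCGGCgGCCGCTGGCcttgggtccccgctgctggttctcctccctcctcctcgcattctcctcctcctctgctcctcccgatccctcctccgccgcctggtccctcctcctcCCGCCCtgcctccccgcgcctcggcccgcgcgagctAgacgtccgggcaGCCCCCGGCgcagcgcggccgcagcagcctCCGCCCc
EREG, chr4:75230612-75230911: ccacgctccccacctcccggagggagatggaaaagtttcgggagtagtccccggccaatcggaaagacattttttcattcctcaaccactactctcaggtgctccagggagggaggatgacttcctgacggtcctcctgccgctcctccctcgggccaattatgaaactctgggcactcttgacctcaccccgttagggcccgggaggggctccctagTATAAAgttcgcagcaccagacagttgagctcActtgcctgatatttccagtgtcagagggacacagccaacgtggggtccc
The EGFR window held 3 AP-2 matches and 3 GC box matches and had a GC content of 75.3%. Another RefSeq window of EGFR (GRCh38.p14), at 42.0% GC, held 2 TATA box matches and neither of the other motifs. The EREG window, at 57.7% GC, held 1 TATA box. In the ERBB2 window, at 61.7% GC, none of the 3 motifs was found, which says only that these letters are absent there. The RefSeq window of ERBB2, at 60.7% GC, is a different stretch and also held none. Among 35116 RefSeq promoter windows of the same length (GRCh38.p14), 23.2% held an AP-2 match, 45.0% a GC box and 11.5% a TATA box. Among the 15563 of these windows that belong to tested genes, the shares were 30.6%, 64.8% and 6.39%. The canonical ERBB2 transcript starts 12150 bases after the first base of the annotated gene.

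ERBB2 and ERBB3 fell steeply and EGFR rose. ERBB2, the ligandless partner receptor, lies on chromosome 17 from 37844167 to 37886679. It stood at 290, 290.2 and 317 CPM in vector replicates 1, 2 and 3 and at 61.9, 65.7 and 63.6 CPM in shMETTL3 replicates 1, 2 and 3. All knockdown libraries lay far below all vector libraries, and the mean fell from 299 ± 15.7 to 63.8 ± 1.90 CPM (SD, n = 3 in each group), which left 21.3%. Its log2 fold change was -2.23 (SE 0.0555, 95% interval -2.34 to -2.12, adjusted p = 1.31e-22 by edgeR), and 208 tested genes had a lower log2 fold change. ERBB2 exons share 571 bases with MIEN1 and 144 bases with PGAP3, both on the opposite strand, and whether the counting used strand is not stated. MIEN1 and PGAP3 themselves changed by -0.39 and -0.45 on the log2 scale.

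ERBB3, the neuregulin receptor with the weak kinase, lies on chromosome 12 from 56470583 to 56497289. Its level was 137, 128 and 138 CPM in the vector libraries and 21.6, 21.5 and 22.6 CPM in the knockdown libraries. The groups were far apart, and the means were 134 ± 5.52 and 21.9 ± 0.640 CPM (SD, n = 3). At 16.3% of vector, ERBB3 was the member that fell most, with a log2 fold change of -2.62 (SE 0.0609, 95% interval -2.74 to -2.49, adjusted p = 3.18e-23 by edgeR), and 155 tested genes had a lower one. The 95% intervals of ERBB2 and ERBB3 do not overlap. The ratio of ERBB2 to ERBB3 counts, which does not depend on scaling between libraries, was 2.12, 2.27 and 2.30 in vector and 2.86, 3.06 and 2.81 in shMETTL3. The ratio was higher in all 3 knockdown libraries, by 0.38 on the log2 scale (p = 0.1 in an exact two-sided permutation test, which cannot go lower with 3 against 3; adjusted p = 0.15 over 6 ratios).

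EGFR, the receptor for most of the ligands here, lies on chromosome 7 from 55086710 to 55279321. It moved the other way, from 118, 117 and 120.0 CPM in vector to 203, 215 and 210.2 CPM in shMETTL3. The lowest knockdown library was well above the highest vector library, and the mean was 1.77-fold higher, with 118 ± 1.71 CPM in vector and 209 ± 5.79 CPM in shMETTL3 (SD, n = 3). The log2 fold change was 0.82 (SE 0.0502, 95% interval 0.72 to 0.93, adjusted p = 4.86e-14 by edgeR). EGFR-AS1, a lncRNA on the opposite strand that shares 186 exon bases with EGFR, had 0, 0 and 1 counts in vector and 7, 4 and 2 in shMETTL3, too few to test.

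ERBB4, a neuregulin receptor with an active kinase, lies on chromosome 2 from 212240442 to 213403565 and was barely expressed. Its counts were 23, 16 and 21 in vector and 35, 43 and 17 in shMETTL3, or 0.957 to 1.29 CPM and 1.07 to 2.14 CPM. ERBB4 was the 1 member whose groups overlapped. Its log2 fold change of 0.53 had a 95% interval from -0.060 to 1.13 (adjusted p = 0.106 by edgeR). Without shMETTL3 replicate 3 it was 0.75 with an adjusted p of 0.0284, and without shMETTL3 replicate 2 it was 0.32 with an adjusted p of 0.434.

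**Figure D1:**
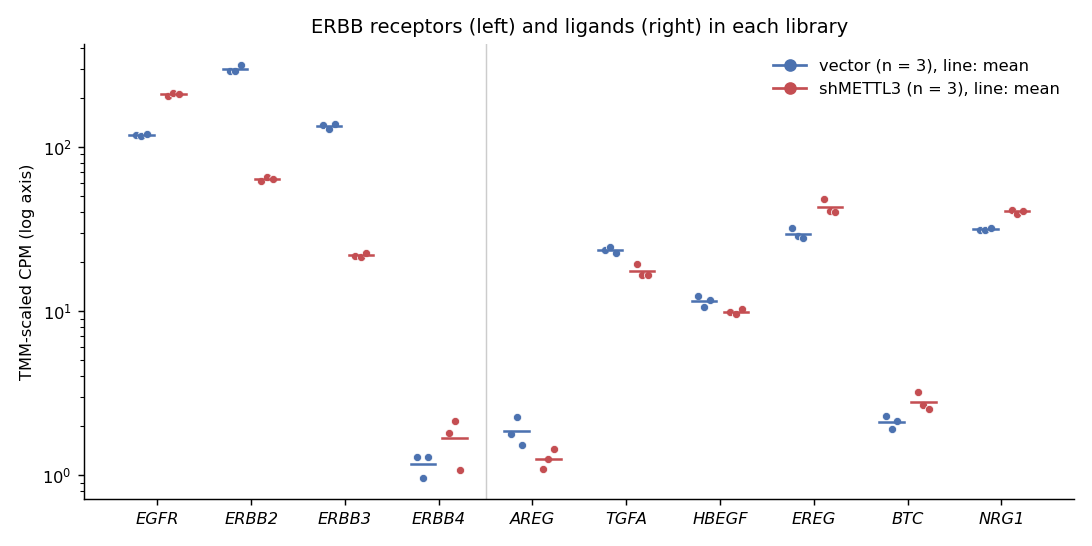
TMM-scaled CPM (log axis) of the 4 receptors (left) and 6 ligands (right), with 1 point a library and a line at the mean of each group (vector blue, shMETTL3 red, n = 3 each). ERBB2 and ERBB3 fall to 21.3% and 16.3% of the vector level, EGFR rises 1.77-fold, and the points of ERBB4 overlap.

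**Figure D2:**
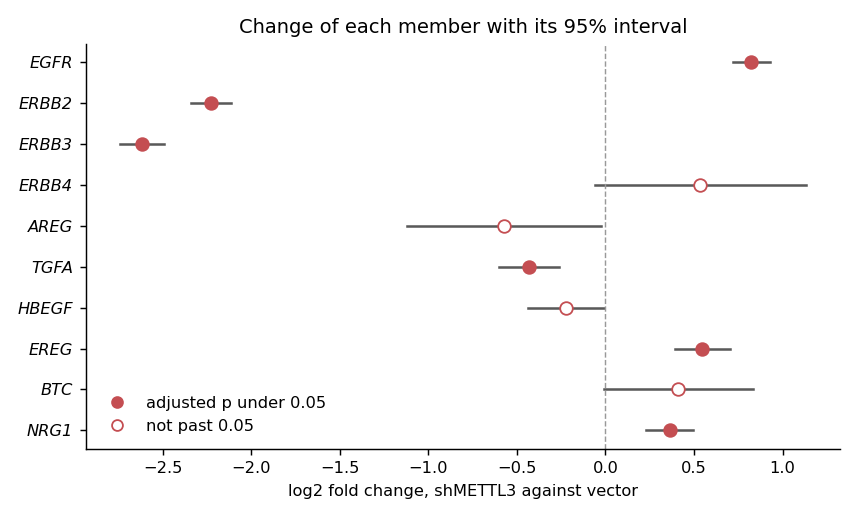
Log2 fold change (shMETTL3 against vector) of each member with its 95% interval, filled where the adjusted p is under 0.05. The intervals of ERBB2 and ERBB3 reach no higher than -2.12, and those of the other members run from -1.12 to 1.13.

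Levels of different genes were compared only per kilobase of exon, as CPM per kilobase. In vector libraries, ERBB2 led with 29.0 ± 1.52, followed by ERBB3 with 11.5 ± 0.471 and EGFR with 7.42 ± 0.107 (SD, n = 3). The ligands EREG, at 5.17 ± 0.405, and TGFA, at 4.82 ± 0.207, overlapped, and HBEGF followed with 3.85 ± 0.310. NRG1, AREG and BTC stood at 1.47, 1.13 and 0.796 CPM per kilobase, and ERBB4 at 0.0902. The order was different in shMETTL3. EGFR led with 13.1 ± 0.363 CPM per kilobase, ahead of EREG with 7.55 ± 0.791 and ERBB2 with 6.18 ± 0.184. TGFA and HBEGF overlapped at 3.56 and 3.31, and NRG1 and ERBB3 overlapped at 1.89 and 1.87 CPM per kilobase. With the length of the longest transcript instead, ERBB2, ERBB3 and EGFR stood at 60.7, 21.4 and 11.9 CPM per kilobase in vector, in the same order. In shMETTL3, EGFR still led at 21.1 by that length. ERBB2 ranked above EREG, at 12.9 against 9.35 CPM per kilobase, and ERBB3 ranked just above NRG1.

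Within the receptor pool, ERBB2 took 60.4 ± 0.962% of the summed CPM per kilobase of the 4 receptors in vector and 29.0 ± 0.162% in shMETTL3 (SD, n = 3). The EGFR share was 15.0 to 15.8% in the vector libraries and 61.5 to 61.7% in the knockdown libraries. ERBB3 had 23.9 ± 0.692% and 8.78 ± 0.343%, and ERBB4 never reached 1% of the pool. These shares are levels of RNA and not of receptor protein. The count ratio of ERBB2 to EGFR was 2.45, 2.49 and 2.64 in vector and 0.305, 0.306 and 0.303 in shMETTL3. The groups were separate, with a log2 difference of -3.05, and the same difference for ERBB3 to EGFR was -3.44 (both p = 0.1 by the two-sided exact permutation test, adjusted p = 0.15 over 6 ratios). With the longest transcript as length, the EGFR share was 12.7% in vector and 56.0% in shMETTL3.

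**Figure D3:**
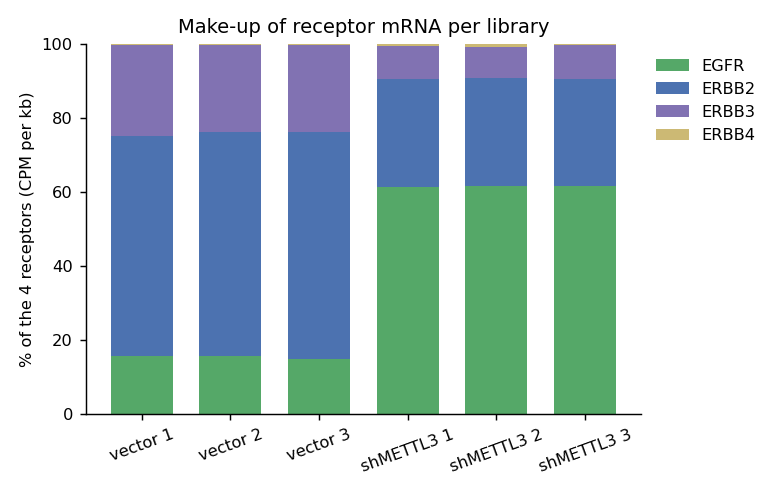
Share of each receptor in the summed CPM per kilobase of the 4 receptors, in percent, stacked for each of the 6 libraries. ERBB2 makes up 60.4% of the pool in vector on average and EGFR 61.6% in shMETTL3.

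Of the 10 members, the ligands AREG and TGFA bind EGFR alone, and both had lower means in shMETTL3. TGFA, a ligand that many carcinomas make, lies on chromosome 2 from 70674416 to 70781325. It was at 23.7, 24.7 and 22.7 CPM in vector and 19.4, 16.6 and 16.5 CPM in shMETTL3. The groups did not overlap, and TGFA fell to 74.0% of the vector level with a log2 fold change of -0.43 (SE 0.0830, 95% interval -0.60 to -0.26, adjusted p = 4.99e-05 by edgeR). AREG, or amphiregulin, lies on chromosome 4 from 75310853 to 75320722 and had few counts: 32, 38 and 25 in vector and 21, 25 and 23 in shMETTL3. Its values did not overlap in CPM, at 1.53 to 2.27 against 1.09 to 1.45, but its log2 fold change of -0.57 (95% interval -1.12 to -0.027) missed the threshold with an adjusted p of 0.0596 by edgeR. The adjusted p was 0.0401 without vector replicate 3, with a log2 fold change of -0.70, and 0.244 without vector replicate 2, with -0.41. AREG counts are uncertain, because all 1642 exon bases occur again at 98% identity or more on chromosome 4 from 75480629 to 75490481, where the table lists AREGB with 1 to 6 counts a library. How reads shared by such copies were counted is not stated.

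The ligands that bind EGFR and ERBB4 are EREG, HBEGF and BTC. EREG, or epiregulin, lies on chromosome 4 from 75230862 to 75254466, in the same cluster as AREG and BTC. It was at 32.1, 28.8 and 27.7 CPM in vector and 48.3, 40.7 and 40.3 CPM in shMETTL3. All knockdown libraries lay above all vector libraries, with means of 29.5 ± 2.31 and 43.1 ± 4.52 CPM (SD, n = 3). EREG rose by 0.55 on the log2 scale (SE 0.0767, 95% interval 0.39 to 0.71, adjusted p = 5.04e-07 by edgeR), the largest rise among the ligands. HBEGF, the heparin-binding ligand, lies on chromosome 5 from 139712428 to 139726188 and stood at 12.4, 10.5 and 11.7 CPM in vector and 9.88, 9.56 and 10.3 CPM in shMETTL3. The nearest libraries of the 2 groups were close, and the log2 fold change of -0.22 (95% interval -0.44 to -0.0059) did not pass, with an adjusted p of 0.0652 by edgeR. Without vector replicate 2 it was -0.29 with an adjusted p of 0.0309, and without vector replicate 1 it was -0.17 with an adjusted p of 0.202. BTC, or betacellulin, lies on chromosome 4 from 75669969 to 75719733 and had 32 to 41 counts in vector and 40 to 62 in shMETTL3. Its log2 fold change of 0.41 had a 95% interval from -0.0083 to 0.83 (adjusted p = 0.0780 by edgeR). The ratio of EREG to AREG counts was higher in all knockdown libraries, by 1.09 on the log2 scale (two-sided exact permutation test, p = 0.1, adjusted p = 0.15). The ratio of HBEGF to AREG differed by 0.33 (p = 0.2, adjusted p = 0.24 by the same exact test) and by 0.11 without vector replicate 2. That of TGFA to AREG differed by 0.11 (exact p = 0.7, adjusted p = 0.7).

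NRG1, a neuregulin that binds ERBB3 and ERBB4, lies on chromosome 8 from 31496738 to 32713184. It was at 31.2, 31.3 and 31.9 CPM in vector and 41.5, 39.1 and 40.6 CPM in shMETTL3. The groups were separate and tight, and NRG1 rose by 0.36 on the log2 scale (SE 0.0646, 95% interval 0.23 to 0.49, adjusted p = 1.91e-05 by edgeR). The ligand rose while its receptor ERBB3 fell. NRG1 exons share 8.59% of their bases with a lincRNA on the same strand.

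The remaining ERBB ligands were few. NRG4, a neuregulin that binds ERBB4, fell from 235, 249 and 232 counts to 95, 91 and 86, a log2 fold change of -1.51 (adjusted p = 9.09e-12 by edgeR). The groups did not overlap. EGF, the founding ligand, had 15 to 20 counts in vector and 25 to 26 in shMETTL3 (log2 fold change 0.45, adjusted p = 0.172). EPGN had 2 counts in 1 knockdown library and was otherwise at 0, NRG2 had 6 to 13 counts a library, and NRG3 was at 0 in all 6. These 3 genes were too low to test.

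Genes around the receptors were read from lists chosen with earlier results known, each given beside the 66.6% background. Of the proteases and cofactors that shed ligands, 7 of 10 tested passed, with 5 higher and 2 lower. ADAM19, a membrane metalloprotease, rose from 29, 37 and 29 counts to 238, 270 and 231, a log2 fold change of 2.84 (adjusted p = 2.25e-15 by edgeR). ADAM10, a main sheddase of EGF, rose by 0.69 and ADAM15 by 0.37, whereas ADAM12 fell by 0.84 and the iRhom cofactor RHBDF2 fell by 0.60. ADAM17, the main sheddase of AREG, TGFA and HBEGF, differed by 0.062 on the log2 scale (adjusted p = 0.372). The median of the list was 0.19.

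Of 18 adaptors and effectors, 7 passed, with 3 higher and 4 lower, a smaller share (38.9%) than the background. STAT5B, a transcription factor that receptors activate, rose by 0.998 on the log2 scale, the RAS exchange factor SOS1 by 0.36 and the adaptor NCK1 by 0.34. GRB7, an adaptor of ERBB2 encoded beside it, fell by 1.45 (adjusted p = 1.59e-16 by edgeR), and the docking protein GAB1 fell by 0.57. Scaled by library size alone, 15 of the 18 passed.

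Receptor inhibitors and turnover genes gave 9 of 15 tested past the threshold, 5 higher and 4 lower. SH3KBP1, an endocytic adaptor that binds CBL, rose by 1.30 on the log2 scale, and SOCS5 and SOCS4, which direct EGFR to degradation, rose by 0.93 and 0.50. The ubiquitin ligase STUB1 fell by 0.63, CBLB, which tags active EGFR with ubiquitin, fell by 0.44, and LRIG3 fell by 0.36. ERRFI1, which binds and blocks EGFR kinase, differed by -0.066 (adjusted p = 0.272). The median of the list was 0.011, and -0.051 without vector replicate 3.

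Of genes that ERK signalling is known to induce, 17 of 18 tested (94.4%) passed, but in both directions, 7 higher and 10 lower. FOSL1, a subunit of AP-1, rose by 1.30, the feedback inhibitor SPRY4 by 1.20 and the ephrin receptor EPHA4 by 1.19. The ETS factor ETV1 fell by 2.12, the ERK phosphatase DUSP5 fell by 1.26 and the ephrin receptor EPHA2 fell by 0.96. The list had a median of -0.20. Of transcription factors known to act on receptor genes, 5 of 6 tested passed and all 5 were lower, where 32.9% of all genes tested were lower. FOXO3, which acts on ERBB3 transcription when PI3K signalling is low, fell by 0.66. TFAP2C, an AP-2 factor that activates ERBB2, fell by 0.62 and the GC box factor SP1 fell by 0.45, with a list median of -0.40. The other AP-2 gene tested, TFAP2A, did not pass, at -0.12 (adjusted p = 0.160 by edgeR).

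**Figure D4:**
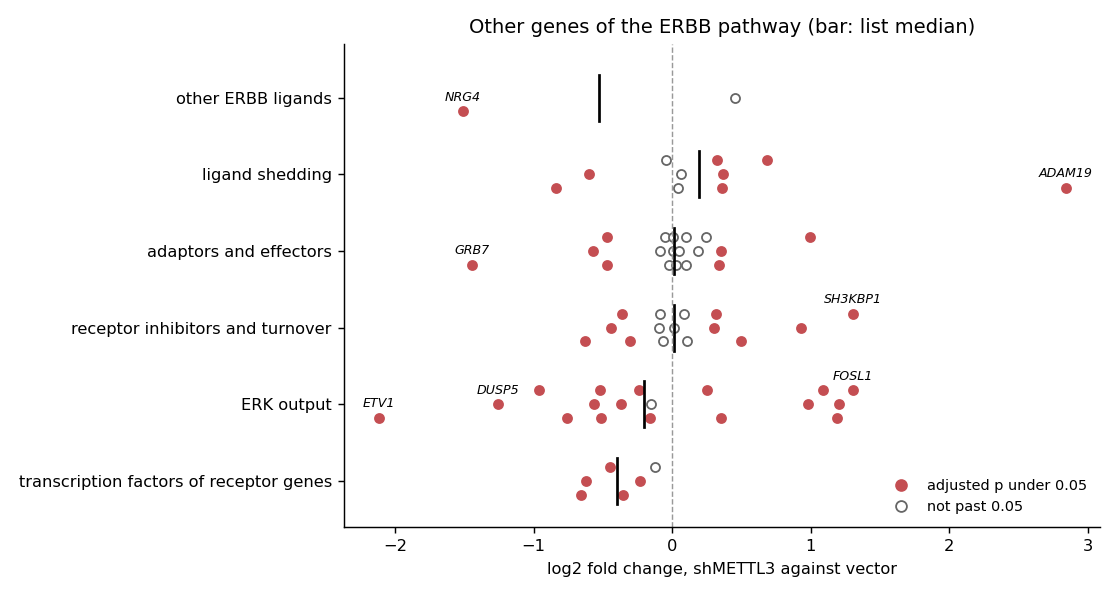
Log2 fold change of each tested gene of the 6 pathway lists, 1 point a gene, filled where the adjusted p is under 0.05, with a bar at the median of each list. The ERK output genes spread to both sides of 0, and the called transcription factors all lie below it.

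All 6 epithelial markers passed the test, 5 lower and 1 higher, where 66.6% of all genes passed and 32.9% were lower. The log2 fold change was -2.73 for EPCAM, an adhesion molecule of epithelia, and -0.58 for E-cadherin (CDH1). Among the keratins it was -2.41 for KRT19, -1.35 for KRT18, -1.09 for KRT8 and 0.29 for KRT7. Their summed level was 9959 to 10622 CPM in vector and 5145 to 5593 CPM in shMETTL3. Of the 7 alveolar type II markers 4 could be tested, SFTPA1 was at 0, NKX2-1 had 0 to 5 counts, SFTPD fell by 3.24 and ABCA3 fell by 0.26, and SFTPB rose from 1 to 3 counts to 11 to 24. Their summed level was 84.5 to 103 CPM and 73.3 to 76.3 CPM. Fibroblast markers summed to 6.73 to 9.98 CPM in vector and 14.4 to 14.8 CPM in shMETTL3, almost all from COL1A1 and LUM, with COL1A2 at 0 in all but 1 library. Leukocyte markers summed to 0.359 to 1.04 CPM and 5.93 to 7.19 CPM through CD14, with CD3E and TYROBP at 0 and PTPRC at 0 or 1 count. LAPTM5 of the same list had 2, 1 and 1 counts in vector and 13, 2 and 3 in shMETTL3, too few to test. Endothelial markers summed to 0 to 0.184 CPM and 1.39 to 1.95 CPM through CDH5, with VWF at 0 throughout. PECAM1 was not analysed here. The part of these genes in the changes of the receptors was not tested.

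Each member was set beside its 10 nearest tested genes with a known position in GRCh37, 5 on each side by gene start. A position was found for 89.9% of the genes tested, and the others could not be neighbours. Their counts stand beside a background of 66.6% called over all genes, 33.7% higher and 32.9% lower, and neighbours of 1 member are not independent. Around ERBB2, all 10 passed, but 7 were higher and 3 lower, with a median of 0.26. The muscle gene TCAP rose by 2.27 and GRB7 fell by 1.45, while ERBB2 itself lay below all 10. Near ERBB3, 6 of 10 passed, a share near the background, and those 6 were lower (median of the 10, -0.32). The lowest, the cell cycle kinase CDK2, was at -1.22. For EGFR, 5 of 10 passed, 3 higher and 2 lower, with LANCL2 and ZNF713 higher by 1.27 and 1.02 and COBL lower, at -1.72. NRG1 rose among neighbours of which 8 of 10 passed, those 8 lower (median of the 10, -0.67), among them PURG at -2.11, TEX15 at -1.90 and UNC5D at -1.33. CPS1 near ERBB4 fell by 1.16. AREG, EREG and BTC share neighbours on chromosome 4, where LINC02562 fell by 1.34 and the chemokine genes CXCL5 and PPBP each fell by 1.16. The chemokine genes CXCL2 and CXCL3 of the same cluster, named after their values were seen, rose by 0.83 and 0.76. Of 10 neighbours each, 4 were called higher and 2 lower for AREG, 3 and 3 for EREG, and 5 and 1 for BTC. These counts include members, as AREG, EREG and BTC are neighbours of one another. EREG was among the genes called higher for AREG and for BTC. MALINC1 near HBEGF rose by 2.03, and around TGFA, where 8 neighbours passed, none changed by 1 or more.

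**Figure D5:**
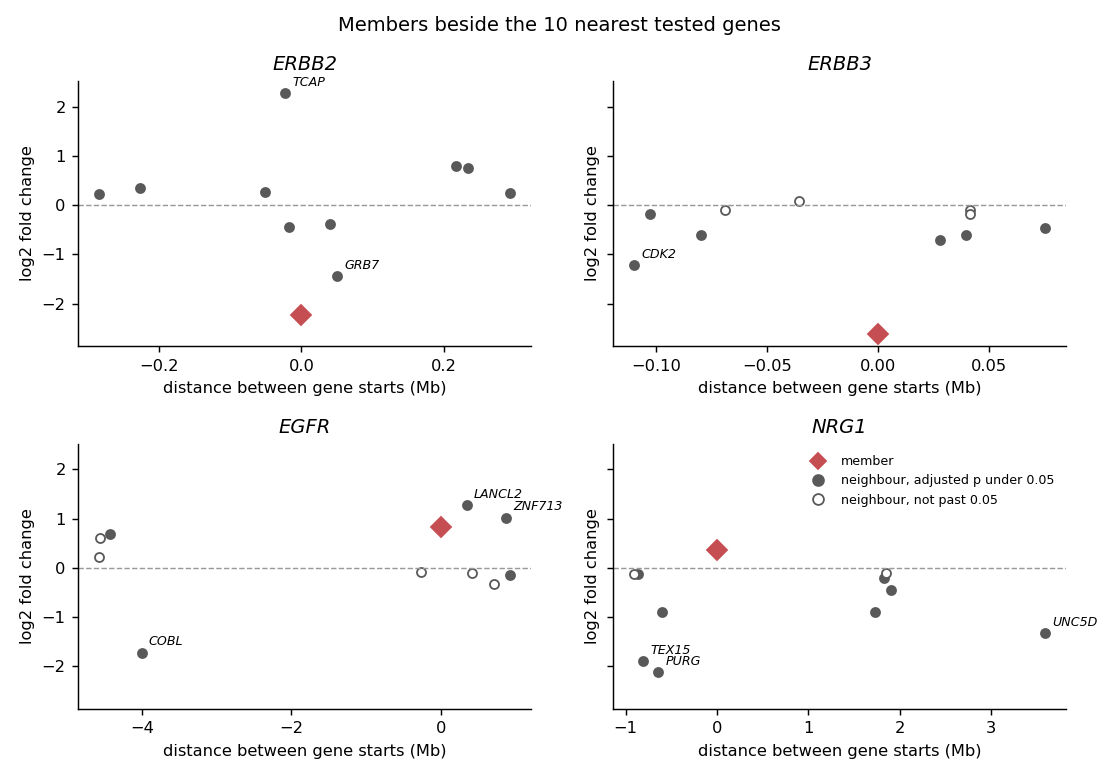
Log2 fold change of ERBB2, ERBB3, EGFR and NRG1 (diamonds) and of their 10 nearest tested genes with a known position (circles). Circles are filled where the adjusted p is under 0.05, and the horizontal axis is the distance between gene starts in megabases. ERBB2 and ERBB3 lie below all their neighbours and NRG1 above all of its own.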

How the data were processed

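RNA was sequenced from 6 libraries of A549 cells, 3 vector and 3 shMETTL3, grouped by the labels. Per the labels, the submitters' processing notes name cutadapt 3.0, HISAT2 2.2.1, SAMtools 1.13, HTSeq 0.13.5 and hg19. The paper's methods name other versions of HISAT2 and HTSeq. The annotation and strand setting are not given in the sources used here. The authors deposited whole-number counts per gene, neither normalized nor filtered.

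Counts were tested in R 4.3.3 with edgeR 4.0.16 (TMM, filterByExpr, glmQLFit and glmQLFTest, group only) over all 15125 genes that passed the filter, with Benjamini-Hochberg adjustment and a threshold of 0.05. Ratios had 0.5 added to each count. Alternatives were RLE, upper-quartile and library-size scaling, 2 other filters, DESeq2 1.42.0, limma-voom (limma 3.58.1), a replicate block, a threshold of 0.01, the longest transcript as length, 3 counts added in ratios, and each library left out. The script was tested on simulated data in which far fewer genes changed than were called here. Its behaviour under so broad a change was not tested. Floors cover counting error only.

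Positions, lengths and copies came from GRCh37, and motif shares from RefSeq promoters (GRCh38.p14). Windows of 8 of the 10 members were read there. ERBB3 and NRG1 were not among them, and the chromosome of NRG1 was left out of that reading. The members and lists were chosen with earlier results of these data known. Named are METTL3, the members, all genes of lists with 6 genes or fewer, the 3 largest called rises and falls of longer lists, ERRFI1, ADAM17, and called neighbours with a log2 change of at least 1. A further gene that this rule names is not reported here. Other genes beside these (overlapping genes, AREGB, TFAP2A, cell type markers) were named after their values were seen.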

Additional observations from a re-analysis of the deposited data

How the results depend on the processing

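The 10 members were recomputed under 15 alternatives each. Direction held in all 150 values, and the 6 called members stayed called in each. The threshold of 0.01 reuses the values of the main fit, so direction could not change under it. Library-size scaling shifted the all-gene median by 0.17 (log2) and the share of called genes that were higher from 50.6% to 65.8%. Under it ERBB4 passed at 0.71 (adjusted p = 0.0336), BTC passed at 0.59 (adjusted p = 0.0136), and the called adaptors rose from 7 to 15. The log2 fold change was then -0.26 for TGFA and -0.048 for HBEGF, and medians were 0.24 (members), -0.36 (other ligands), 0.37 (shedding), 0.19 (adaptors), 0.18 (inhibitors), -0.027 (ERK output) and -0.22 (transcription factors). With at least 10 counts in every library AREG passed at -0.55 (adjusted p = 0.0477). The cause of each was not tested.

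With each library left out in turn, ERBB4 ran from 0.32 to 0.75, AREG from -0.70 to -0.41 and HBEGF from -0.29 to -0.17. The log2 ratio of HBEGF to AREG ran from 0.11 to 0.47. That of TGFA to AREG ran from -0.069 to 0.26 and turned sign without vector replicate 2, at -0.012, and without shMETTL3 replicate 1, at -0.069. The called members numbered 6 to 8 over the alternatives, and all genes called 8666 to 10648.

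Same-numbered libraries showed little shared deviation (correlations of 0.069, -0.024 and 0.039). With so few libraries this cannot settle whether the numbers pair the samples. With the replicate block 6 members and 10111 of all genes were called, and EGFR, ERBB2 and ERBB3 changed by 0.82, -2.23 and -2.61. ERBB4, AREG and BTC had 16 to 62 counts a library and HBEGF 163 to 222, and the part of depth in their missing the threshold was not tested.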

Other observations

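GGACT, a common sequence of m6A sites, was counted in the canonical transcript of each member, since the knocked down enzyme writes this mark. EGFR held 12 matches, or 1.21 per kilobase, ERBB3 6 (1.07 per kilobase), ERBB4 10 (0.827), TGFA 3 (0.729), ERBB2 3 (0.658), EREG 3 (0.650), NRG1 7 (0.584) and BTC 1 (0.377). HBEGF had the highest density, 1.70 per kilobase with 4 matches, and AREG had none. The median over tested protein-coding genes was 0.922 per kilobase. EGFR, which rose, and ERBB3, which fell, both lay above it, and ERBB2 and EREG below it. m6A itself was not measured in these libraries, and a match is not a modified site.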
